A study of Rattus norvegicus with 82 samples.

Results

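The genes described here handle iron and haem in the rat heart: Tfrc, Hamp, Lcn2, Hmox1, Slc40a1, Slc11a2, Fth1, Ftl1 and Cp. They were taken from a list of 9 genes, each looked up by symbol in the array's probe annotation. Where a gene had several probe sets, 1 was selected on its intensity averaged across the 82 arrays, the brightest being kept. A probe set of their own was found for 7 of the 9 genes, of 14217 genes with one on the array, while Fth1 and Ftl1 were covered only by probe sets annotated to several genes. The list was drawn up with results of these data known, and Tfrc and Hamp were singled out in that way, so their tests measure the size of a change against the spread between animals and are no independent evidence for the choice. The averages that chose the probe sets were 1984 for Tfrc, 689.1 for Lcn2, 478 for Hamp, 359.2 for Slc40a1, 354.2 for Hmox1, 312.2 for Slc11a2 and 189.6 for Cp. Intensity is the brightness of a probe set on a linear scale, and levels of different genes are not compared, since probes differ.

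Heart RNA was measured in male Wistar (Crl:Wi(Han)) rats 6 or 24 h after 1 intravenous injection. The tubulin binders were vinblastine at 0.5 or 3 mg/kg, vincristine at 0.1 or 1 mg/kg and colchicine at 0.2 or 2 mg/kg, each in 0.9% saline, and the controls received 0.9% saline alone. These 14 groups held 6 arrays each, except vincristine 0.1 mg/kg, which held 5 at each time, and every array carried the RNA of 1 animal. The age of the animals and the part of the heart sampled were not given in the sources used here, and no genetic change is named for any group.

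Iron reaches cells bound to transferrin, which the transferrin receptor (Tfrc) takes into endosomes, and the divalent metal transporter Slc11a2 moves the metal on into the cytosol. Ferritin, built from heavy (Fth1) and light (Ftl1) chains, stores it, ferroportin (Slc40a1) is the known cellular exporter, and the ferroxidase ceruloplasmin (Cp) oxidises the iron that leaves. Hepcidin (Hamp) is the peptide hormone that removes ferroportin from the cell surface, lipocalin 2 (Lcn2) binds bacterial iron chelators, and haem oxygenase 1 (Hmox1) frees iron from haem. Hepcidin and lipocalin 2 are known as genes of inflammation, and the Tfrc message is known to be stabilised by iron regulatory proteins when cells lack iron.

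Promoter sequence is shown for the genes that define the pattern, Hamp and Tfrc, because their known regulators were among the gene lists examined. RefSeq sequences of rat build GRCr8 held promoters of 6 of the 9 listed genes. The 250 bases upstream of the annotated start were searched on both strands for TTCNNNGAA (the STAT type), GGCGCC (the core of BMP response elements), TGACNNNGC (the antioxidant response type), ACGTG (the hypoxia response type) and TGANTCA (the AP-1 type). Matches are in capitals. The Hamp sequence is chr1:95300272-95300521, minus strand, and the Tfrc sequence is chr11:81690319-81690568, minus strand.
Hamp: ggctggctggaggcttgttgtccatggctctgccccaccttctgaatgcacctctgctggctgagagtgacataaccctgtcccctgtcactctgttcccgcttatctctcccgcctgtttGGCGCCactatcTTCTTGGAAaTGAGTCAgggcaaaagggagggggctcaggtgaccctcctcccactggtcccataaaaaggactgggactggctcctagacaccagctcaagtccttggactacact
Tfrc: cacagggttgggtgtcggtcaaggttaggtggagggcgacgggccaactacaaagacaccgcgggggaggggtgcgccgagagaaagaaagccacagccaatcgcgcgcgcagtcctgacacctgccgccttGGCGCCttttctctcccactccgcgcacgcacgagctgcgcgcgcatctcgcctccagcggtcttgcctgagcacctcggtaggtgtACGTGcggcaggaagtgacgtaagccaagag

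The Hamp promoter held GGCGCC at 129 to 124 bases, TTCTTGGAA at 117 to 109 bases and TGAGTCA at 107 to 101 bases before the start. The Tfrc promoter held GGCGCC at 118 to 113 bases and ACGTG at 31 to 27 bases. Over 33469 RefSeq promoters of the same length, TTCNNNGAA was present in 7.67%, GGCGCC in 8.69%, TGANTCA in 6.34%, ACGTG in 16.6% and TGACNNNGC in 10.1%. No match to any of the 5 motifs lay in the windows of Lcn2, Slc40a1, Slc11a2 or Cp, which says only that these letters were not there. A match is a description of the letters and not a measured binding site.

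Of the 82 arrays, 10 had a profile over all genes that lay nearer to another group than to their own, by a ratio above 1.3 of the distances. For the iron genes 2 of them weighed most. The array labelled vinblastine 3 mg/kg at 6 h, replicate 1, read 405 for Tfrc and 5332 for Hamp, and its profile lay nearest to colchicine 2 mg/kg at 24 h. The array labelled colchicine 2 mg/kg at 24 h, replicate 1, read 3292 for Tfrc and 106 for Hamp, and its profile lay nearest to colchicine 0.2 mg/kg at 24 h. The labels were kept, and many results that rest on these arrays are also given without all 10. The 10 were picked for lying far from their own group, so leaving them out narrows the spread that all groups share. A call gained in that way by a group that lost no array is no added evidence about its hearts. Of 8 markers of cardiac muscle cells 7 had a probe set, and all 7 were bright enough to test. Their summed intensity ran from 123685 to 167815 over all arrays, and 0, 1 and 3 of 7 were lower at 24 h after vinblastine 3, vincristine 1 and colchicine 2 mg/kg. Of all tested genes 4.28%, 18.4% and 25.3% were lower there.

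At the lower doses, none of the 7 genes was called. Each of the 6 comparisons with saline called 0 of 7 in limma at an adjusted p of 0.05, where 0.0353%, 0% and 0.274% of the 11319 tested genes passed at 6 h after vinblastine, vincristine and colchicine, and 0%, 0% and 0% at 24 h. No member reached an unadjusted p under 0.05 in any of these 42 tests, and the largest of the 42 log2 changes was 0.48 in size. Of the 11319 tested genes, 591, 441 and 757 did so at 6 h after vinblastine, vincristine and colchicine. At 24 h it was 227, 316 and 289. With so few over all genes, 0 of 42 says little about the members. In the saline hearts 0 of 7 genes differed between 24 and 6 h, against 0.00883% of all genes. The higher doses called 23 of 42, with 30 of 42 at an unadjusted p under 0.05. Among all 11319 tested genes, 3956, 2103 and 2468 had such a p at 6 h after vinblastine, vincristine and colchicine. The numbers at 24 h were 2523, 4511 and 5692. The called share of all genes ran from 3.3% after vincristine at 6 h to 44.6% after colchicine at 24 h.

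At 6 h the changes were increases only. Vinblastine at 3 mg/kg raised 4 of 7 genes (Hamp, Lcn2, Hmox1 and Cp), when 23.3% of all tested genes passed (15.7% higher and 7.67% lower). Colchicine at 2 mg/kg raised 2 of 7 (Lcn2 and Hmox1), against 9.27% (4.89% higher and 4.37% lower). Vincristine at 1 mg/kg called 0 of 7, against 3.3% of all genes (2.05% higher and 1.25% lower), with 3 of the 7 (Lcn2, Hmox1 and Cp) at an unadjusted p under 0.05. With the 10 arrays left out, 12.3% of all genes and 3 of the 7 (Hamp, Lcn2 and Hmox1) passed after vincristine, and 19.3% and 4 of 7 after colchicine, Hamp and Cp being the added genes.

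At 24 h the pattern ran in both directions. Vinblastine at 3 mg/kg raised Hmox1 and Cp and lowered Tfrc and Slc11a2, 4 of 7 genes against 9.58% of all genes (5.29% higher and 4.28% lower). Vincristine at 1 mg/kg called 7 of 7, with 5 higher and 2 lower, against 30.4% (12% higher and 18.4% lower). Colchicine at 2 mg/kg called 6 of 7, with 4 higher and 2 lower, against 44.6% (19.3% higher and 25.3% lower). The median log2 change of the 7 genes was 0.97, 1.49 and 1.37, and that of all tested genes was -0.01, -0.01 and 0.00. All comparisons of 1 time share the same 6 saline arrays, so their common direction is not counted as repeated evidence. The doses differ between compounds, which were therefore not tested against each other.

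**Figure D1:**
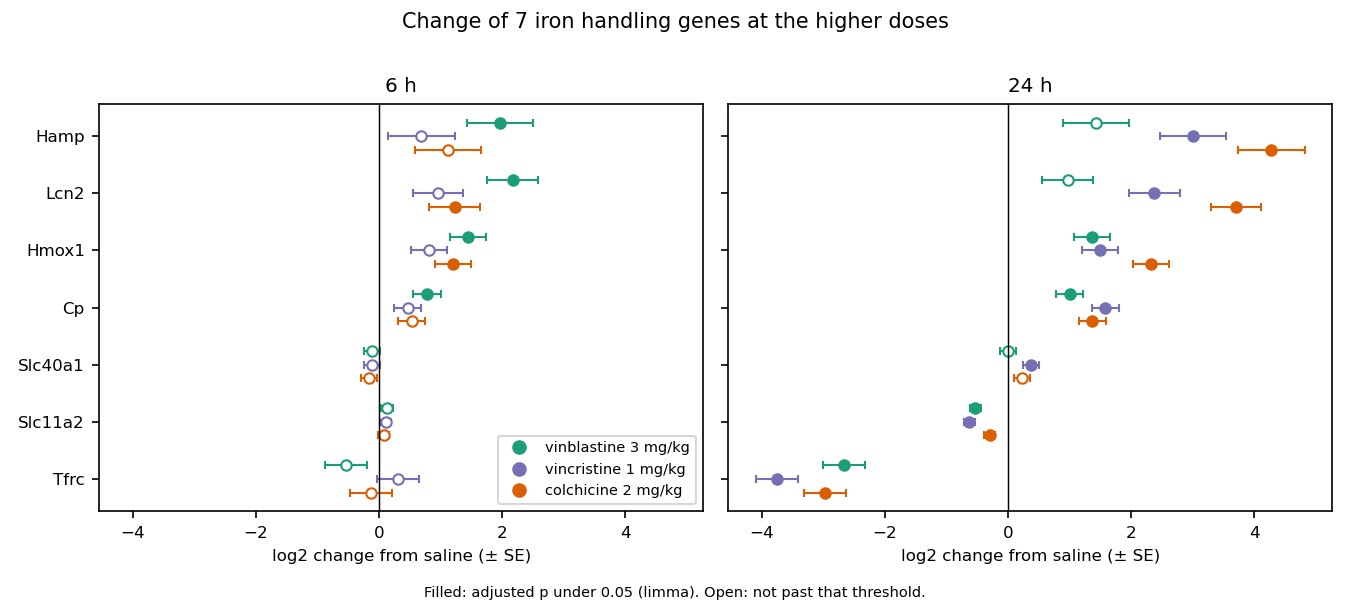
Log2 change from saline of 7 iron handling genes (vertical axis) with its standard error (bars) at 6 h (left) and 24 h (right), for vinblastine 3 mg/kg, vincristine 1 mg/kg and colchicine 2 mg/kg. Filled points passed an adjusted p of 0.05 in limma. Tfrc lies near 0 at 6 h and between -2.66 and -3.76 at 24 h, while Hamp reaches 4.28 after colchicine at 24 h.

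Tfrc, the receptor that brings transferrin-bound iron into the cell, showed the strongest fall of the group. In saline hearts at 24 h its intensity ran from 1548 to 3237 with a median of 3113. Vinblastine at 3 mg/kg lowered it to between 256 and 714 (median 417), vincristine at 1 mg/kg to between 153 and 318 (median 183), and colchicine at 2 mg/kg to between 148 and 264 on 5 of its 6 arrays. Only the colchicine array labelled replicate 1, at 3292, lay among the controls, and the vinblastine and vincristine groups did not overlap saline.

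The log2 change was -2.66 ± 0.34 (SE) after vinblastine (limma adjusted p = 3.94e-08, lower on 6 of 6 arrays). Vincristine gave -3.76 ± 0.34 (limma adjusted p = 1.62e-13, 6 of 6), which is 13.5-fold on the scale of intensity plus 16. Colchicine gave -2.98 ± 0.34 (limma adjusted p = 1.07e-10, 5 of 6), and -3.62 ± 0.21 without the 10 arrays. Ranked by p among the 11319 tested genes, Tfrc stood 8th after vinblastine, 2nd after vincristine and 54th after colchicine.

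Tfrc was not yet lower at 6 h. Saline hearts ran from 1340 to 3093 (median 2075). The medians were 1817 for vinblastine at 3 mg/kg, 2844 for vincristine at 1 mg/kg and 1809 for colchicine at 2 mg/kg, and all 3 groups overlapped saline. The log2 changes were -0.54 ± 0.34, 0.31 ± 0.34 and -0.13 ± 0.34, with limma adjusted p of 0.26, 0.665 and 0.891 and 95% intervals of -1.21 to 0.14, -0.37 to 0.98 and -0.80 to 0.55. The change at 24 h differed from that at 6 h for all 3 compounds, by -2.13 ± 0.48 (limma adjusted p = 0.005), -4.07 ± 0.48 (2.12e-08) and -2.85 ± 0.48 (3.07e-05). These time contrasts called 2, 4 and 6 of the 7 genes, against 4.44%, 12.3% and 18.9% of all tested genes.

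Across the 14 groups, the medians of Tfrc formed a low set of 3, at 183, 251 and 417 (the 24 h hearts of vincristine 1, colchicine 2 and vinblastine 3 mg/kg). The other 11 medians lay between 1809 and 3113, and neighbours within either set overlapped in their arrays. The dimmer probe set of Tfrc fell as well at 24 h, with log2 changes of -2.84, -3.35 and -2.77 for vinblastine, vincristine and colchicine (limma adjusted p = 5.52e-09, 8.48e-12 and 6.67e-10 over 20526 probe sets).

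**Figure D2:**
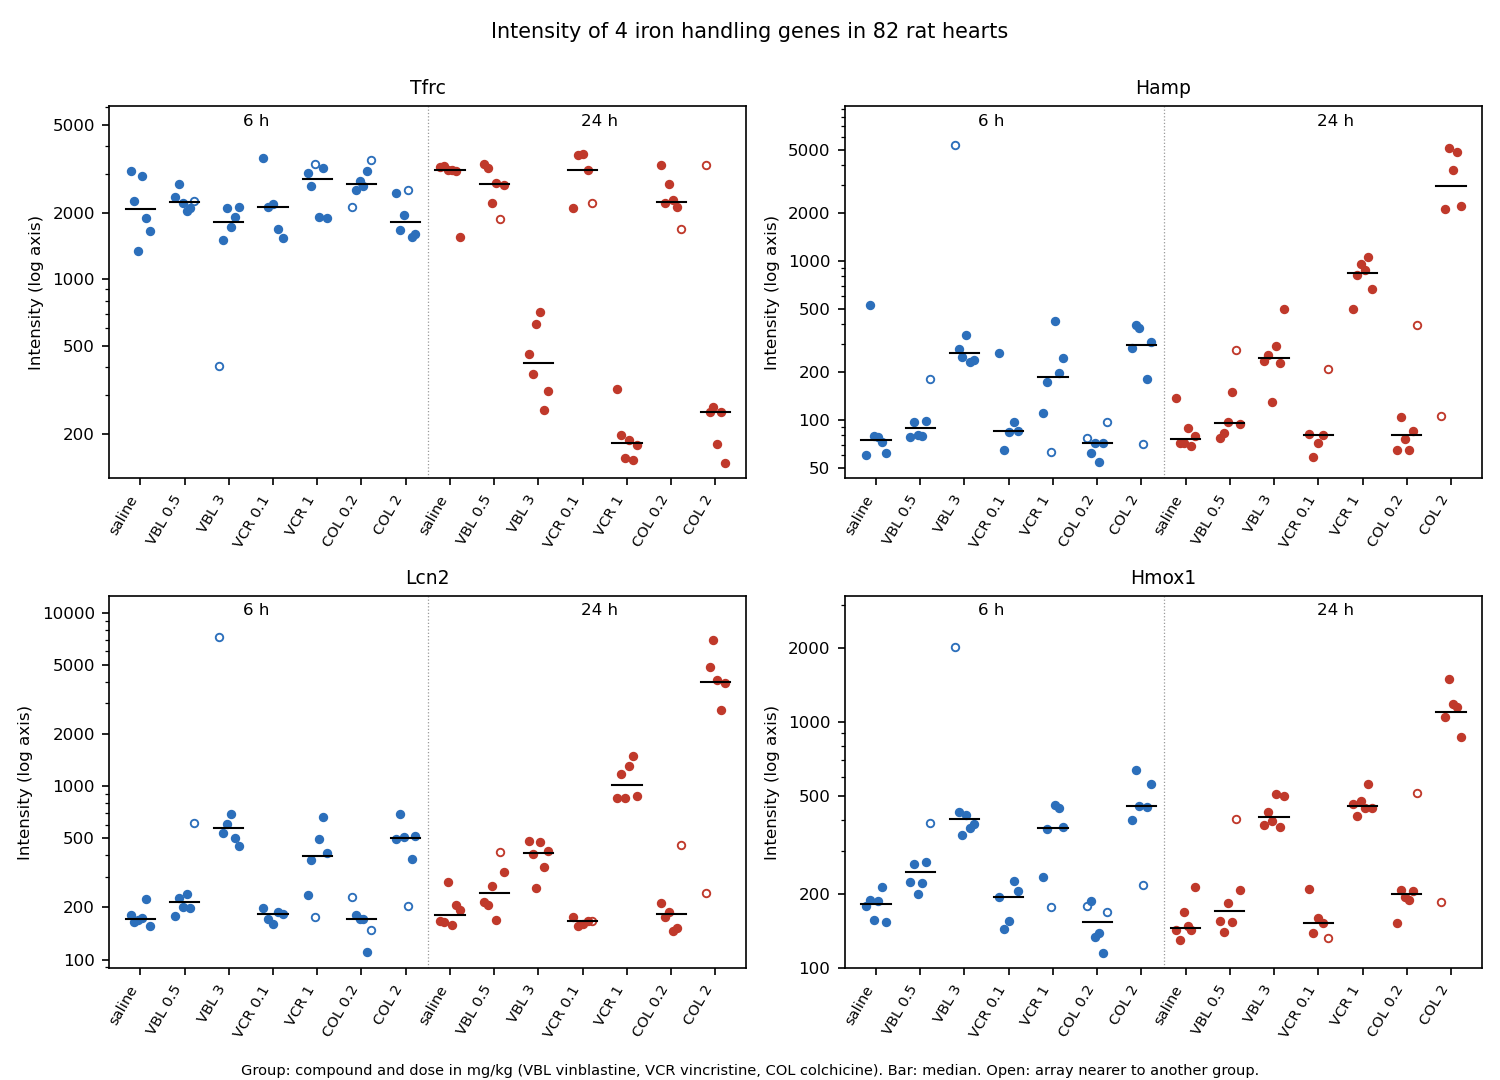
Intensity of Tfrc, Hamp, Lcn2 and Hmox1 on each of the 82 arrays (points, log axis) by compound and dose in mg/kg at 6 h (blue) and 24 h (red), with the group median as a bar. Open points are the 10 arrays nearer to another group. Tfrc is low in the 24 h hearts of the higher doses, where the other 3 genes reach their highest medians after colchicine 2 mg/kg.

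Immature red cells carry large amounts of transferrin receptor, and some of their markers were lower at 24 h where Tfrc fell. Of the red-cell marker list 7 of 10 genes had a probe set, 2 of these (Epb42 and Rhag) were too dim to test, and 3, 3 and 1 of the 5 tested were lower after vinblastine 3, vincristine 1 and colchicine 2 mg/kg, or 3, 3 and 2 with the 10 arrays left out. Over all genes 4.28%, 18.4% and 25.3% were lower in these comparisons. Without the 10 arrays, 15.8%, 34.9% and 50.6% of all genes were called in either direction. Slc4a1, the anion exchanger of the red-cell membrane, ran from 199 to 275 in saline hearts at 24 h. It read 91 to 133 after vinblastine, 64.8 to 95.6 after vincristine and 25.6 to 67.2 after colchicine, leaving out replicate 1 at 237. Alas2, the haem synthesis enzyme of red cells, changed by -0.91, -1.15 and -0.39 on the log2 scale, of which the last did not pass (limma adjusted p = 0.00135, 8.56e-06 and 0.111).

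The log2 change of haemoglobin beta (Hbb) was -0.39, -0.56 and -0.16, and only the first and second passed. The summed red-cell markers ran from 12275 to 14326 in saline hearts at 24 h, and from 7974 to 11435, 6538 to 10784 and 9173 to 12553 after vinblastine, vincristine and colchicine. This sum of linear intensities was mostly Hbb, which alone ran from 11386 to 13341 in those saline hearts. After vinblastine 0.5 mg/kg at 24 h the sum had a median of 8887, against 12893 in saline. Alas2 ran from 129 to 476 there, against 387 to 540 in saline. Tfrc had not fallen in that group, at 1866 to 3315 (median 2699). In whole heart RNA, fewer cells of a type and less RNA per cell cannot be told apart. The part of red-cell RNA in the fall of Tfrc was not tested.

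**Figure D3:**
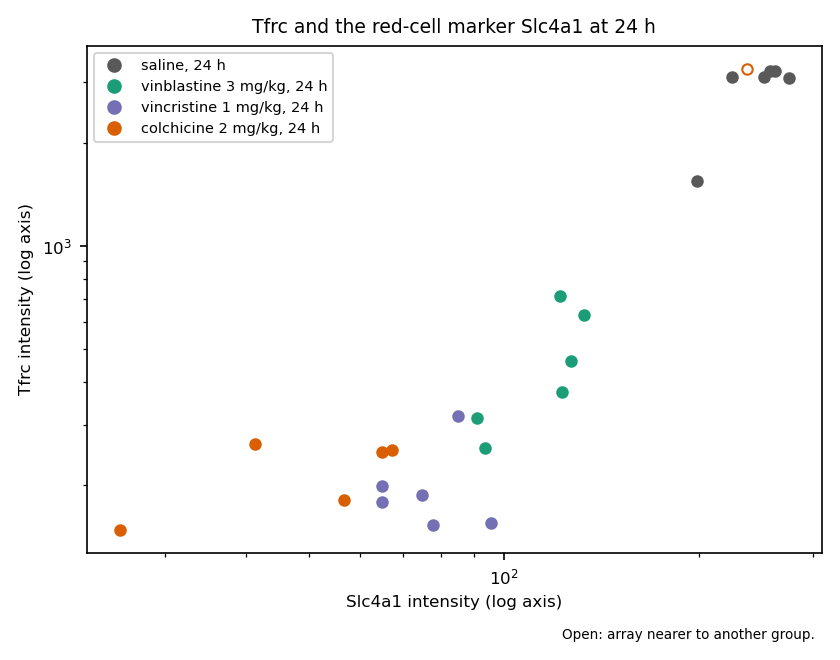
Tfrc intensity (vertical, log axis) against the intensity of the red-cell marker Slc4a1 (horizontal, log axis) in the 24 h hearts of saline and the higher doses, with 1 point per animal. Treated hearts lie lower on both axes than saline, except for the colchicine array labelled replicate 1 (open), which reads 3292 and 237.

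Slc11a2, the transporter that carries iron out of the endosome, fell at 24 h by a small amount. Saline hearts ran from 272 to 374 (median 354). The ranges were 206 to 279 (median 221) after vinblastine 3 mg/kg, 197 to 228 (median 213) after vincristine 1 mg/kg and 217 to 370 (median 248) after colchicine 2 mg/kg, and only the vincristine group did not overlap saline. The log2 changes were -0.53 ± 0.09, -0.63 ± 0.09 and -0.30 ± 0.09 (limma adjusted p = 2.47e-05, 1.62e-07 and 0.00457). At 6 h the changes were 0.13, 0.11 and 0.08, with none past the threshold, and the time contrast passed for all 3 compounds (-0.66, -0.74 and -0.38). The colchicine contrast (limma adjusted p = 0.0293) was lost with quantile normalization (0.0697), without the arrays ending in _2 (0.0849) and with only the compared groups fitted (0.124). Several fits that left out 1 array lost it too, with limma adjusted p of up to 0.081.

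The 2 probe sets of Slc11a2 disagreed. The other one, whose saline medians were 73.8 and 83.1, changed by 0.02, -0.03 and 0.12 at 24 h, with limma adjusted p of 0.936, 0.84 and 0.35. With the mean over both probe sets the colchicine change shrank to -0.09 and its time contrast to -0.19, and neither passed. The fall of Slc11a2 thus rests on 1 probe set.

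Hamp, the gene of hepcidin, was called higher at 24 h after vincristine and colchicine and at 6 h after vinblastine. Whether vinblastine passed at either time depended on the fit. It read 60.7 to 79.5 in saline hearts at 6 h apart from 1 array at 532, and 68.4 to 138 (median 75.6) at 24 h. At 24 h its intensity was 130 to 502 (median 246) after vinblastine 3 mg/kg, 497 to 1052 (median 843) after vincristine 1 mg/kg and 2121 to 5093 on 5 of 6 arrays after colchicine 2 mg/kg, with replicate 1 at 106. Only the vincristine group stood clear of saline on every array.

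After vincristine the rise was 3.01 ± 0.54 (SE) on the log2 scale (limma adjusted p = 9.71e-06, 6 of 6 arrays), 8.03-fold on the scale of intensity plus 16. After colchicine it was 4.28 ± 0.54 (limma adjusted p = 1.04e-09), and 5.08 ± 0.30 without the 10 arrays. The vinblastine change of 1.43 ± 0.54 did not pass (limma adjusted p = 0.0766), though Hamp was higher on 6 of 6 arrays. Without the 10 arrays it passed (limma adjusted p = 0.000143). None of the 10 was in this group or its saline group, so the change stayed the same and only its SE shrank, to 0.29. With only the compared groups fitted, the same change also passed (limma adjusted p = 0.00045), as it did without the arrays ending in _2 (0.0239).

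At 6 h, Hamp read 231 to 343 on 5 arrays of vinblastine 3 mg/kg and 5332 on the array labelled replicate 1. The change was 1.97 ± 0.54 (limma adjusted p = 0.00458), and 1.27 ± 0.30 without the 10 arrays (limma adjusted p = 0.00135). With replicate 1 alone left out, the call was lost (limma adjusted p = 0.0807). It was also lost with only the compared groups fitted (limma adjusted p = 0.11). The changes after vincristine 1 mg/kg (0.69 ± 0.54) and colchicine 2 mg/kg (1.12 ± 0.54) did not pass, with limma adjusted p of 0.506 and 0.201, and without the 10 arrays they were 0.95 ± 0.30 and 1.43 ± 0.30 and passed (0.0271 and 0.000193). The change at 24 h exceeded that at 6 h after vincristine by 2.31 ± 0.76 (limma adjusted p = 0.0327) and after colchicine by 3.16 ± 0.76 (0.00171), and for vinblastine the difference was -0.54 ± 0.76 (0.732). The vincristine difference lost its call without the saline array with the highest Hamp at 6 h (1.87, limma adjusted p = 0.0846), and also without vincristine 1 mg/kg replicate 1 or 3 at 6 h or replicate 5 at 24 h (0.0526, 0.073 and 0.0516).

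Hamp is known to be expressed in the atria, and the level of atrial marker RNA varied between hearts. Myl7, the atrial myosin light chain, was at 220 or below on 10 of 12 saline arrays and read 3338 and 1348 on the others, which were the saline arrays with the highest Hamp at 6 h (532) and at 24 h (138). The arrays of vincristine 0.1 mg/kg with Hamp at 262 (6 h) and 208 (24 h) read 3460 and 2028 for Myl7. In the 24 h hearts of the higher doses, Myl7 ran from 38.1 to 145, within the 36.9 to 220 of those 10 saline arrays.

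Of the 5 atrial markers 4 had a probe set, and 1 of 4 was higher at 24 h after each compound at the higher dose, against 5.29%, 12% and 19.3% of all genes. The raised marker was Nppa, the natriuretic peptide also known to rise in ventricles under load, with log2 changes of 1.42, 1.98 and 2.10 (limma adjusted p = 0.0144, 9.78e-05 and 1.43e-05), while Myl7 changed by -1.10, -1.16 and -1.27 and did not pass. The summed atrial markers ran from 1283 to 5035 in saline hearts at 24 h, and from 3425 to 6574, 4210 to 12067 and 2108 to 11714 after vinblastine, vincristine and colchicine. As a sum of linear intensities it was mostly Nppa in these treated groups. Hepatocytes are the main known source of hepcidin, and 6 of 10 hepatocyte markers were too dim to test. Albumin (Alb) read 35.6 to 46.6 in saline hearts at 24 h and 38.9 to 60.8 after colchicine 2 mg/kg, near the array medians of 57.6 to 63.3. The summed hepatocyte markers ran from 728 to 905 in those saline hearts and from 808 to 1056, 987 to 1192 and 858 to 1025 after vinblastine, vincristine and colchicine, with 0, 1 and 1 of the 4 tested higher. The part of atrial or hepatocyte RNA in the rise of Hamp was not tested.

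**Figure D4:**
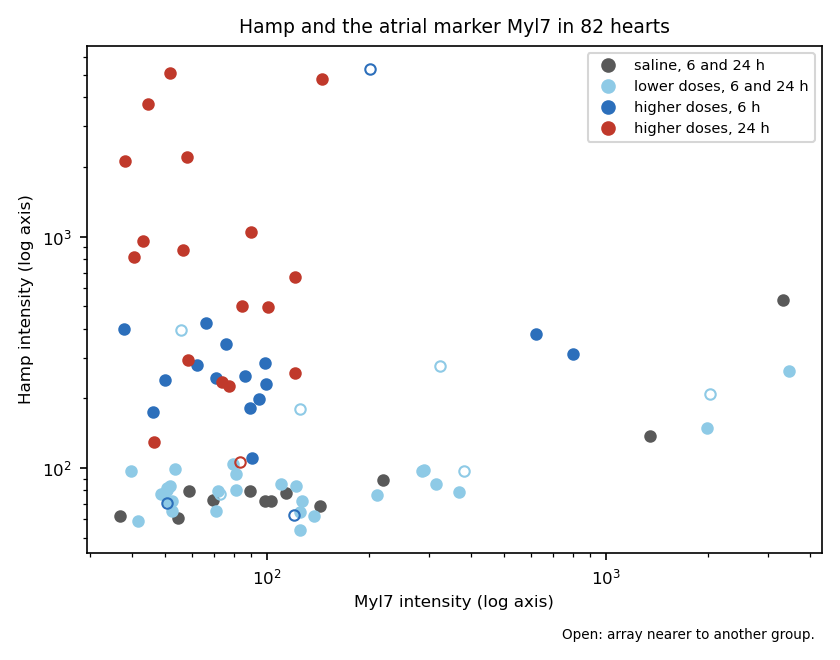
Hamp intensity (vertical, log axis) against the intensity of the atrial marker Myl7 (horizontal, log axis) on 82 arrays, with 1 point per animal. Hearts of the higher doses at 24 h (red) rise to 5093 for Hamp at Myl7 of 145 or less, while single saline and lower-dose hearts with Myl7 of 1348 or more read between 138 and 532 for Hamp.

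Slc40a1, the ferroportin gene whose protein hepcidin removes, changed little. Its intensity ran from 324 to 420 in saline hearts at 24 h, 230 to 446 after vinblastine 3 mg/kg, 368 to 617 after vincristine 1 mg/kg and 320 to 485 after colchicine 2 mg/kg, and all groups overlapped. The rise after vincristine was 0.38 ± 0.13 on the log2 scale (limma adjusted p = 0.0169, 6 of 6 arrays), and it was lost without replicate 3 or replicate 5 (limma adjusted p = 0.0536 and 0.0749). Its second probe set gave 0.21 ± 0.11 there (limma adjusted p = 0.152). The colchicine change was 0.22 ± 0.13 (0.162) and that of vinblastine 0.00 ± 0.13 (0.993). At 6 h the 3 changes were -0.11, -0.12 and -0.17, and none passed. The level of the protein was not measured.

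Lcn2, the siderophore-binding protein of the acute phase, had its highest group median in the colchicine hearts at 24 h, while the highest single reading, 7236, was on the array labelled vinblastine 3 mg/kg at 6 h, replicate 1. In saline hearts it ran from 156 to 222 at 6 h and from 158 to 280 at 24 h. At 24 h it read 258 to 481 (median 414) after vinblastine 3 mg/kg, 854 to 1495 (median 1022) after vincristine 1 mg/kg and 2739 to 7007 on 5 of 6 arrays after colchicine 2 mg/kg, with replicate 1 at 242. Vincristine cleared the saline range on all arrays, and the vinblastine group overlapped it on 1 array.

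The 24 h changes were 0.97 ± 0.41 for vinblastine (limma adjusted p = 0.132), 2.38 ± 0.41 for vincristine (5.51e-06) and 3.71 ± 0.41 for colchicine (5.77e-11). Omitting the 10 arrays gave 0.97 ± 0.17 (1.11e-05), 2.38 ± 0.17 and 4.38 ± 0.18. The vinblastine, vincristine and saline groups at 24 h held none of the 10, so only the shared spread shrank there. At 6 h Lcn2 was 453 to 689 on 5 arrays of vinblastine 3 mg/kg, 177 to 663 after vincristine 1 mg/kg and 203 to 693 after colchicine 2 mg/kg. The vinblastine change of 2.17 ± 0.41 (limma adjusted p = 9.16e-05) was 1.55 ± 0.18 without the 10 arrays. That of colchicine was 1.23 ± 0.41 (0.0429) and lost its call in 10 of 12 fits that left out 1 array, with limma adjusted p of up to 0.109, while without the 10 arrays it was 1.45 ± 0.18 (9.61e-10). That of vincristine, 0.96 ± 0.41 (0.18), was 1.16 ± 0.18 (9.58e-07) without them.

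Neutrophils store lipocalin 2, and their markers were followed in the same hearts. Of 10 neutrophil markers 6 had a probe set and 3 were too dim to test. Of the 3 tested, 3, 1 and 2 were higher at 6 h and 0, 2 and 2 at 24 h after vinblastine, vincristine and colchicine. With the 10 arrays left out the counts were 3, 2 and 2 and then 1, 2 and 2. In those fits 15.8%, 12.3% and 19.3% of all genes were called in either direction at 6 h. The shares at 24 h were 15.8%, 34.9% and 50.6%. With all arrays, 15.7%, 2.05% and 4.89% of all genes were higher at 6 h and 5.29%, 12% and 19.3% at 24 h. S100a9 read 685 to 1194 at 6 h after vinblastine 3 mg/kg against 35.4 to 91.3 in saline, and 93.7 to 490 at 24 h after colchicine 2 mg/kg against 38.5 to 67.1. Its log2 changes at 6 h were 3.68, 2.11 and 2.88 for vinblastine, vincristine and colchicine, and at 24 h 1.09, 2.24 and 2.36, of which 1.09 did not pass (limma adjusted p = 0.206). S100a9 was highest after vinblastine at 6 h, where Lcn2 had a median of 571, and lower after colchicine at 24 h, where Lcn2 had a median of 3998. The summed neutrophil markers at 6 h ran from 163 to 234 in saline and from 954 to 1643, 160 to 902 and 160 to 1190 after vinblastine, vincristine and colchicine. At 24 h they ran from 164 to 206 in saline and from 239 to 291, 361 to 725 and 225 to 728 in these groups. The part of neutrophil RNA in the Lcn2 signal was not tested.

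Hmox1, the haem-degrading enzyme, was the gene of the group raised in 5 of the 6 comparisons of a higher dose with saline. Saline hearts ran from 154 to 214 at 6 h and from 130 to 213 at 24 h. At 24 h, vinblastine 3 mg/kg gave 375 to 510, vincristine 1 mg/kg gave 415 to 561 and colchicine 2 mg/kg gave 871 to 1497 on 5 arrays, with replicate 1 at 185. The vinblastine and vincristine groups lay wholly above saline, with changes of 1.37 ± 0.29 (limma adjusted p = 0.00052) and 1.49 ± 0.29 (3.7e-05), and colchicine gave 2.32 ± 0.29 (7.96e-10).

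At 6 h, vinblastine 3 mg/kg gave 348 to 430 on 5 arrays and 2022 on replicate 1, and colchicine 2 mg/kg gave 217 to 640, both without overlap with saline. The changes were 1.45 ± 0.29 (limma adjusted p = 0.000151) and 1.20 ± 0.29 (0.00315). Without the 10 arrays vinblastine gave 1.06 ± 0.13 and colchicine 1.39 ± 0.13. Vincristine 1 mg/kg, at 177 to 460, gave 0.81 ± 0.29 (0.0961), and 0.98 ± 0.13 (5.45e-08) without the 10 arrays. Macrophages are a known site of haem breakdown, and 5, 6 and 4 of the 8 tested macrophage markers were higher at 24 h after vinblastine, vincristine and colchicine, and 0, 0 and 2 lower. Leaving out the 10 arrays gave 6, 6 and 3 higher and 0, 1 and 2 lower. At 6 h, 1 was higher and 2 lower in each of the 3 groups, and 1 higher and 3, 6 and 2 lower with the 10 arrays left out. With all arrays, 5.29%, 12% and 19.3% of all genes were higher and 4.28%, 18.4% and 25.3% lower at 24 h. At 6 h the shares were 15.7%, 2.05% and 4.89% higher and 7.67%, 1.25% and 4.37% lower. Without the 10 arrays, 15.8%, 34.9% and 50.6% of all genes were called in either direction at 24 h, and 15.8%, 12.3% and 19.3% at 6 h. The summed intensity of the macrophage markers, over 9 of 12 markers with a probe set, ran from 2355 to 2799 in saline hearts at 24 h and from 4018 to 6131, 3588 to 4848 and 2356 to 3780 in these groups, and their part in the rise of Hmox1 was not tested.

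Cp, the ferroxidase ceruloplasmin, rose at 24 h. Saline hearts ran from 79.9 to 153 (median 129), vinblastine 3 mg/kg from 160 to 410 (median 246), vincristine 1 mg/kg from 329 to 598 (median 376) and colchicine 2 mg/kg from 131 to 521 (median 403). Vinblastine and vincristine did not overlap saline. The changes were 1.00 ± 0.22 (limma adjusted p = 0.00115), 1.58 ± 0.22 (7.37e-08) and 1.37 ± 0.22 (4.06e-07). Its second probe set rose by 0.75, 1.14 and 1.13 (each ± 0.14). At 6 h only vinblastine passed, at 0.78 ± 0.22 (0.00643), and without its replicate 1 the change was 0.47 (0.112).

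**Figure D5:**
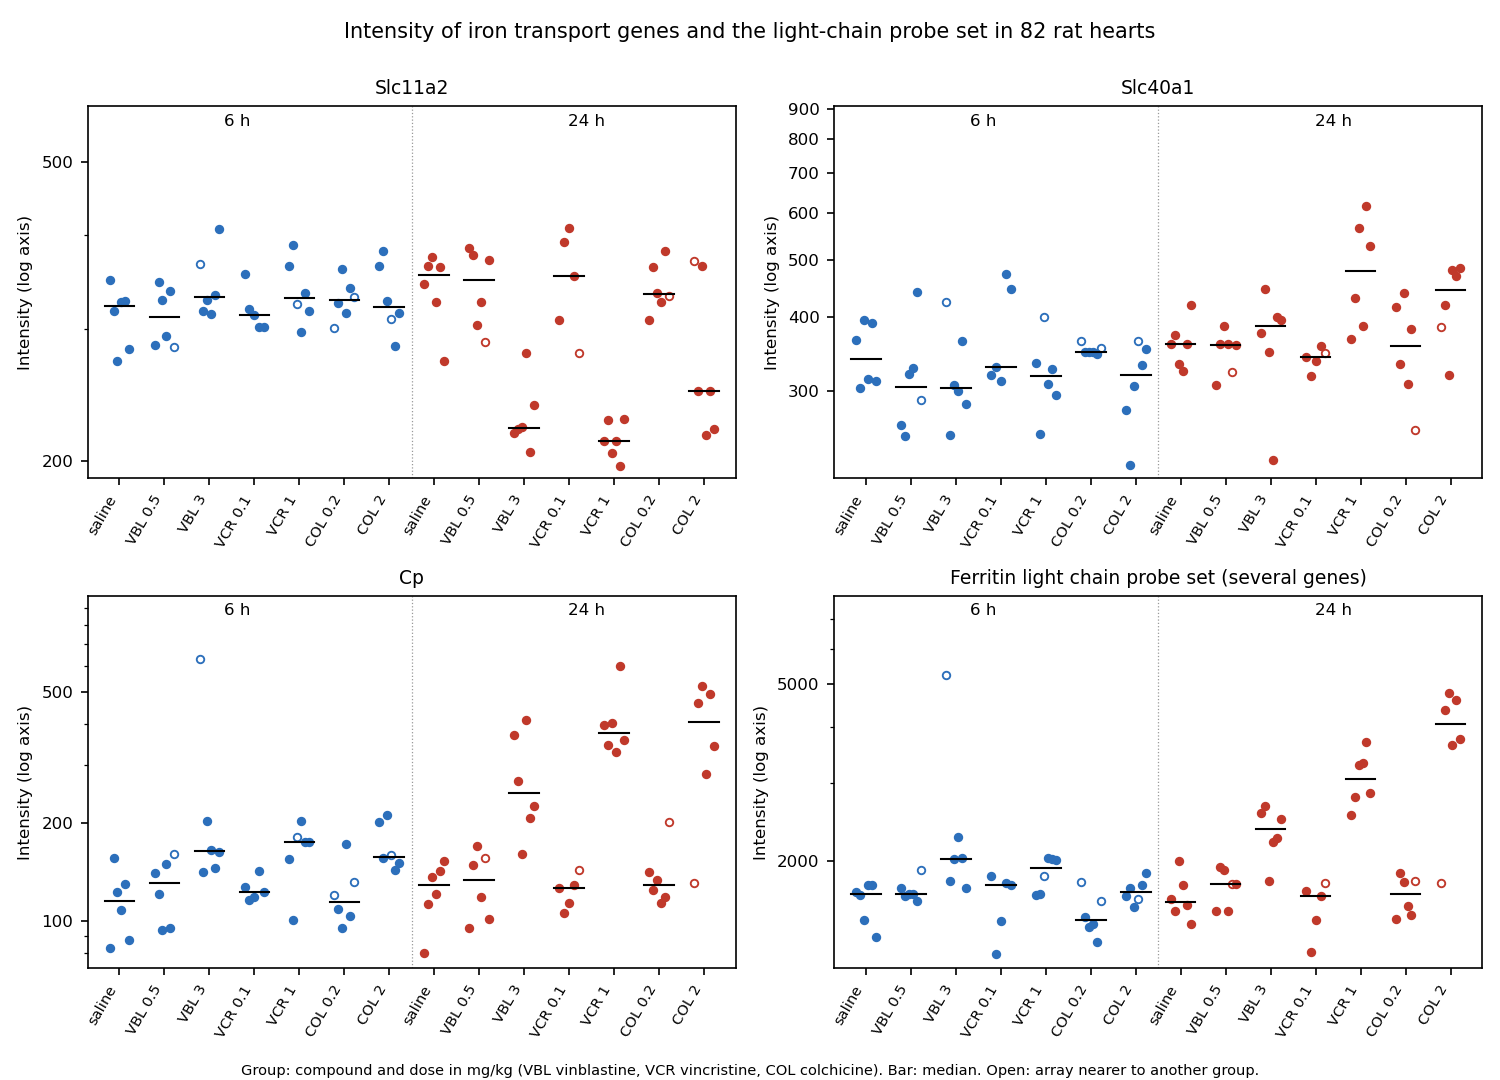
Intensity of Slc11a2, Slc40a1, Cp and the shared ferritin light-chain probe set on each of the 82 arrays (points, log axis) by compound and dose in mg/kg at 6 h (blue) and 24 h (red), with the group median as a bar and open points for the 10 arrays nearer to another group. Slc11a2 is lower and Cp higher in the 24 h hearts of the higher doses, and Slc40a1 overlaps between groups.

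The ferritin chains could not be read gene by gene. The probe set annotated to Fth1 and the copy Fth1-ps5 ran from 12296 to 18221 over all arrays, and its changes at the higher doses lay between -0.05 and 0.12 on the log2 scale, with none past the threshold. The probe set annotated to Ftl1 and 4 other symbols read 1440 to 2002 in saline hearts at 24 h. It read 1804 to 2657 after vinblastine 3 mg/kg, 2536 to 3693 after vincristine 1 mg/kg and 3648 to 4758 on 5 arrays after colchicine 2 mg/kg, with replicate 1 at 1780. The changes were 0.48 ± 0.15 (limma adjusted p = 0.0319), 0.88 ± 0.15 (4.52e-06) and 1.13 ± 0.15 (4.25e-09) over 20526 probe sets. At 6 h the vinblastine group rose by 0.51 ± 0.15 (0.00942), with 1741 to 2259 on 5 arrays and 5233 on the array labelled replicate 1.

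Each higher dose was also set against the lower dose of the same compound. At 24 h vinblastine called 4 of 7 genes (against 5.49% of all genes), vincristine 7 of 7 (23.9%) and colchicine 6 of 7 (41.5%), in the directions seen against saline. The log2 changes of Tfrc in these contrasts were -2.56 ± 0.34, -3.79 ± 0.36 and -2.71 ± 0.34 (limma adjusted p = 1.88e-07, 9.1e-13 and 1.7e-09). Hamp rose by 2.91 ± 0.56 and 4.01 ± 0.54 between the doses of vincristine and colchicine, and the vinblastine difference of 1.02 ± 0.54 did not pass (limma adjusted p = 0.325). At 6 h the counts were 3 of 7 for vinblastine (8.53%), 0 of 7 for vincristine (2.81%), where Hmox1 and Lcn2 had an unadjusted p under 0.05, and 2 of 7 for colchicine (9.25%). Leaving out replicate 1 of vinblastine 3 mg/kg took the vinblastine count at 6 h from 3 to 0.

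Other genes of iron uptake mostly did not follow Tfrc. Of 8 tested genes of the transferrin cycle and iron uptake besides the members, 2 were higher at 24 h after each of the 3 compounds, and 0, 1 and 1 lower. Over all genes 5.29%, 12% and 19.3% were higher and 4.28%, 18.4% and 25.3% lower. The 2 raised genes were Slc39a14, a transporter of iron not bound to transferrin, and Lrp1, the receptor that clears haem bound to haemopexin. Slc39a14 changed by 0.85, 0.83 and 1.28 and Lrp1 by 0.75, 1.03 and 1.08 after vinblastine, vincristine and colchicine. Slc39a14 already rose at 6 h after vinblastine (0.81 ± 0.16, limma adjusted p = 0.000116), where Steap3, the endosomal ferrireductase, fell by 0.21. The iron regulatory proteins and their turnover gave 0, 1 and 1 of 8 lower at 24 h and 0 higher. The gene lowered was Aco1, which encodes iron regulatory protein 1, with -0.22 ± 0.07 after vincristine and -0.21 ± 0.07 after colchicine. Ireb2, which encodes iron regulatory protein 2, changed by -0.21, -0.14 and -0.08 and did not pass. Leaving out the 10 arrays, the colchicine count of this list was 2 higher and 2 lower, when 50.6% of all genes were called.

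Of 4 tested storage genes besides the members 1 was higher after colchicine at 24 h, and of 2 tested export genes 1 was lower. Of all genes 19.3% were higher and 25.3% lower in that comparison. Pcbp1, which delivers iron to ferritin, rose by 0.33 ± 0.07, and by 0.26 ± 0.07 after vinblastine at 6 h. Hephaestin (Heph), a ferroxidase of the cell membrane, fell by 0.70 ± 0.12 after colchicine at 24 h (limma adjusted p = 2.19e-06) and by 0.51 ± 0.12 after vinblastine at 6 h (0.00145), opposite to Cp. Slc22a17, a reported receptor for lipocalin 2, fell by 0.30 ± 0.09 after vincristine and 0.49 ± 0.09 after colchicine at 24 h. Bdh2, an enzyme assigned to mammalian siderophore synthesis, fell by 0.40 ± 0.09 after colchicine.

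Regulators of hepcidin moved in both directions. At 24 h, 2, 4 and 9 of 22 tested genes were higher and 0, 1 and 3 lower after vinblastine, vincristine and colchicine, with median log2 changes of 0.07, 0.12 and 0.13. Over all genes 5.29%, 12% and 19.3% were higher and 4.28%, 18.4% and 25.3% lower. Leaving out the 10 arrays gave 2, 4 and 10 higher and 0, 3 and 3 lower. In those fits 15.8%, 34.9% and 50.6% of all genes were called in either direction. Stat3, which carries the interleukin 6 signal to the Hamp promoter, rose by 0.76 ± 0.23, 1.33 ± 0.23 and 1.78 ± 0.23 (limma adjusted p = 0.0218, 5.89e-06 and 2.25e-09), and was also 0.91 higher after vinblastine at 6 h. Hjv, the BMP coreceptor haemojuvelin, fell by 1.36 ± 0.20 after colchicine (5.53e-08). Bmpr2, a BMP receptor, rose by 0.80 ± 0.22 after vincristine, and Id1, a BMP target, rose by 0.38 ± 0.13 after vinblastine.

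At 6 h this list gave 10 higher and 1 lower after vinblastine, 0 and 0 after vincristine, and 2 and 2 after colchicine. Of all genes 15.7%, 2.05% and 4.89% were higher and 7.67%, 1.25% and 4.37% lower. The counts without the 10 arrays were 9 and 1, 4 and 2, and 7 and 2, when 15.8%, 12.3% and 19.3% of all genes were called. Bmp2, a ligand of the pathway, rose by 0.81 ± 0.21 after vinblastine and 0.69 ± 0.21 after colchicine, where Id1 fell by 0.65 ± 0.13.

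Of 16 tested acute phase and NF-kappaB genes, 11, 3 and 6 were higher at 6 h and 5, 9 and 13 at 24 h after vinblastine, vincristine and colchicine, with none lower. Over all genes 15.7%, 2.05% and 4.89% were higher at 6 h and 5.29%, 12% and 19.3% at 24 h. The median log2 changes were 0.89, 0.27 and 0.38 at 6 h and 0.21, 0.71 and 0.92 at 24 h, and that of all genes lay between -0.01 and 0.01. Leaving out the 10 arrays gave 9, 9 and 12 at 6 h, when 15.8%, 12.3% and 19.3% of all genes were called in either direction. Cebpb, an acute phase transcription factor, rose by 2.26 ± 0.36, 1.37 ± 0.36 and 1.79 ± 0.36 at 6 h, and Cebpd by 1.87, 1.31 and 1.79. Orm1, an acute phase plasma protein, rose by 1.55, 2.12 and 2.77 (each ± 0.31) at 24 h, from a saline range of 25.7 to 31.9 to medians of 113, 169 and 396. Timp1, an inhibitor of matrix proteases, rose by 2.54 ± 0.40 after colchicine.

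Some genes of haem and of iron-sulphur clusters fell at 24 h after vincristine and colchicine, while most did not pass. Of 20 tested haem genes besides the members, 8 were lower and 2 higher after each of these, and 2 and 2 after vinblastine, while at 6 h none passed. As shares of 20 these stand beside 18.4% lower and 12% higher over all genes after vincristine, and 25.3% and 19.3% after colchicine. With the 10 arrays left out, the lower counts at 24 h were 4, 8 and 10 for vinblastine, vincristine and colchicine. In those fits 15.8%, 34.9% and 50.6% of all genes were called in either direction. Alas1, the rate-limiting enzyme of haem synthesis outside red cells, fell by 1.09 ± 0.17 after vincristine and 1.35 ± 0.17 after colchicine (limma adjusted p = 9.42e-07 and 1.47e-09). Alad, the next enzyme, fell by 0.74 ± 0.10 after colchicine. Cd163, the macrophage receptor for haptoglobin-bound haemoglobin, rose by 0.78 ± 0.15 after vinblastine.

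Of 16 genes of mitochondrial iron and iron-sulphur assembly, 2, 5 and 10 were lower and 1, 2 and 1 higher at 24 h. Over all genes 4.28%, 18.4% and 25.3% were lower and 5.29%, 12% and 19.3% higher. Glrx5, a glutaredoxin of cluster transfer, fell by 0.45 ± 0.11, 0.95 ± 0.11 and 0.95 ± 0.11, and Bola3, which acts with it, by 0.34, 0.53 and 0.64 (each ± 0.09). The mitochondrial iron importers did the opposite: Slc25a37 changed by 0.08, 0.19 and 0.24 and Slc25a28 by 0.28, 0.33 and 0.18, with 0.08 and the Slc25a28 value of colchicine not passing. Both were picked out after their values were seen, as was Ireb2 above.

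NRF2 targets, the family of antioxidant genes to which Hmox1 belongs, gave 0, 5 and 6 of 9 tested genes higher at 24 h and 4, 0 and 0 at 6 h, with none lower. The shares of all genes that were higher were 5.29%, 12% and 19.3% at 24 h and 15.7%, 2.05% and 4.89% at 6 h. Srxn1, which repairs peroxiredoxins, rose by 1.13 ± 0.19 after vincristine and 1.46 ± 0.19 after colchicine, and Txnrd1, thioredoxin reductase 1, by 0.56 and 1.04 (each ± 0.18). With the 10 arrays left out, the counts were 4, 5 and 6 at 24 h and 3, 2 and 3 at 6 h. In those fits 15.8%, 34.9% and 50.6% of all genes were called in either direction at 24 h. The shares at 6 h were 15.8%, 12.3% and 19.3%. Of 13 tested HIF target genes, a family that includes Tfrc, 2, 2 and 4 were higher and 1, 5 and 3 lower at 24 h. The shares of all genes that were lower at 24 h were 4.28%, 18.4% and 25.3%. Bnip3, which triggers mitophagy, rose by 0.75, 1.24 and 1.34 (each ± 0.18), and Hk2, hexokinase 2, fell by 0.86 and 1.33 after vinblastine and vincristine. The glucose transporter Slc2a1 rose by 1.12 ± 0.18 after colchicine. At 6 h, Ndrg1, a hypoxia-induced gene, rose by 0.92, 0.62 and 1.00 (each ± 0.13), and Adm, adrenomedullin, by 1.07 ± 0.21 after vinblastine. The 6 h counts of higher genes were 5, 2 and 3, and 5, 6 and 4 with the 10 arrays left out, beside the 6 h shares given above.

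Myc, a transcription factor known to drive Tfrc in growing cells, rose in 2 of the 3 groups with low Tfrc and in 2 groups where Tfrc had not fallen. At 24 h its change was 1.38 ± 0.36 after vincristine and 2.62 ± 0.36 after colchicine (limma adjusted p = 0.00223 and 1.25e-08), and at 6 h it was 1.50 ± 0.36 after vinblastine and 1.11 ± 0.36 after colchicine. Of a list of 7 growth genes that includes Myc itself, 1, 4 and 5 were higher at 24 h and 1, 1 and 0 lower. At 6 h 5, 0 and 1 were higher, or 2, 2 and 3 with the 10 arrays left out. In the latter fits 15.8%, 12.3% and 19.3% of all genes were called in either direction. Over all genes 5.29%, 12% and 19.3% were higher and 4.28%, 18.4% and 25.3% lower at 24 h. At 6 h the higher shares were 15.7%, 2.05% and 4.89%. Nucleolin (Ncl), which acts in ribosome assembly, rose by 0.39 and 0.63 after vincristine and colchicine, and by 0.55 after vinblastine at 6 h. After vinblastine at 24 h, Odc1, the polyamine enzyme, fell by 0.52 ± 0.09 and Max, the partner of Myc, rose by 0.52 ± 0.09. Markers of dividing cells, another cell class rich in transferrin receptor, were lower for 2, 2 and 1 of 6 tested at 24 h. Their sum ran from 377 to 497 in saline and from 349 to 445, 376 to 434 and 376 to 468 in the treated groups, and their part in the fall of Tfrc was not tested.

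Ferroptosis is the death pathway of iron-driven lipid oxidation. Of 8 tested ferroptosis genes besides the members, 0, 2 and 3 were higher and 2, 2 and 2 lower at 24 h. Over all genes 5.29%, 12% and 19.3% were higher and 4.28%, 18.4% and 25.3% lower. Sat1, which breaks down polyamines, rose by 0.77 ± 0.24 after vincristine and 1.26 ± 0.24 after colchicine, and by 1.16 and 0.93 at 6 h after vinblastine and colchicine. Acsl4, which loads polyunsaturated lipids, rose by 0.83 and 0.78 in the same 6 h groups. Lpcat3, an enzyme of the same lipid route, fell by 0.41 and 0.90 after vinblastine and colchicine at 24 h, and Alox15, a lipoxygenase, by 0.66 and 0.71 after vinblastine and vincristine.

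The genes whose group means followed the members most closely were found by Pearson correlation over the 14 group means, among 11199 genes. For Tfrc they were Hspe1, the mitochondrial cochaperonin (r = 0.977), Slc2a4, the insulin-responsive glucose transporter (0.976), and Fcer2 (0.976). For Hamp they were Ctsl, Fstl3 and Stat3 (0.99 each), and for Lcn2 they were Ampd3 (0.995), Tnfrsf1a (0.992) and Hamp itself (0.989). Group means share the same control arrays and the same few strong groups, so these values describe likeness and carry no p.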

How the data were processed

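Heart RNA of 82 rats was hybridised to Affymetrix arrays, 1 animal per array, after labelling with the 3' IVT express kit, per the labels' protocols. The deposited table gives intensity on a linear scale, summarised per probe set and evidently normalized between arrays by the authors, since array medians lie between 57.6 and 63.3. No source used here names the summarisation or the scaling. Of 31099 probe sets, 20826 carried 1 gene symbol, 436 several and 9780 were unnamed here, and 57 were controls. Columns of other samples numbered 0. Replicates are single animals, and no label gives litters or days, so p-values measure the spread between these animals. The number of arrays limits the precision.

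Intensity plus 16 was taken to log2, and 1 probe set stood for a gene. A gene entered the tests if 5 or more arrays had it brighter than their own 40th percentile, as 11319 genes did. The 7 members passed on all 82 arrays. limma 3.58.1 (R 4.3.3) fitted all 14 groups together, with 68 residual degrees of freedom and Benjamini-Hochberg adjustment over all tested genes in each of 22 comparisons, and an adjusted p under 0.05 was a call. Other probe sets of a member were tested in a fit of 20526 probe sets. In data simulated for vinblastine 3 mg/kg at 6 h over 11319 genes, the fit found 98% of planted 2-fold and 100% of 4-fold changes, with 12 false calls. The planted genes were drawn at random and carried normal noise, so this rate does not hold for each member. Hamp and Lcn2 had standard errors of 0.54 and 0.41, and their changes of 1.43 and 0.97 after vinblastine 3 mg/kg at 24 h did not pass.

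Named were all members, and per pathway list up to 2 genes with the largest change among those called at each higher dose, and the 3 genes most like Tfrc, Hamp and Lcn2. Ireb2, Slc25a37 and Slc25a28 fell outside this rule. Members and lists were chosen with earlier results of these data known. Replicate numbers were not treated as pairs of animals. The alternatives were another offset, no filter, quantile normalization, all probe sets of a gene, the replicate number as a block, fits of the compared groups only, leaving out each replicate, the arrays whose description ends in _2, and the 10 arrays nearer to another group. The list counts without those 10 arrays were added after seeing the data.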

Additional observations from a re-analysis of the deposited data

Results flagged for a closer look

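Each gene was checked in each group for a single array set far from the rest, by the gap to its nearest neighbour as a share of the group's range. In 98 such checks 24 arrays stood apart, where chance gives about 1 in 20, and 17 of the 24 were among the 10 arrays nearer to another group.

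The array labelled vinblastine 3 mg/kg at 6 h, replicate 1, stood apart for 5 genes. It read 405 for Tfrc (the others 1499 to 2130), 5332 for Hamp (231 to 343), 7236 for Lcn2 (453 to 689), 2022 for Hmox1 (348 to 430) and 631 for Cp (141 to 202). The array labelled colchicine 2 mg/kg at 24 h, replicate 1, did so for 4 genes, with 3292 for Tfrc (148 to 264), 106 for Hamp (2121 to 5093), 242 for Lcn2 (2739 to 7007) and 185 for Hmox1 (871 to 1497). Replicate 6 of colchicine 0.2 mg/kg at 24 h read 396 for Hamp (64.7 to 104), 456 for Lcn2 (147 to 213), 515 for Hmox1 (152 to 207) and 201 for Cp (114 to 141). Replicate 6 of vinblastine 0.5 mg/kg at 6 h read 180 for Hamp and 612 for Lcn2, replicate 5 of vinblastine 0.5 mg/kg at 24 h read 402 for Hmox1, and replicate 5 of vincristine 0.1 mg/kg at 24 h read 208 for Hamp.

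The remaining 7 were on arrays that lay with their own group. Hamp stood high on replicate 2 of saline at 6 h (532), replicate 1 of saline at 24 h (138) and replicate 1 of vincristine 0.1 mg/kg at 6 h (262), which are the arrays with high Myl7. Tfrc was low on replicate 6 of saline at 24 h (1548) and high on replicate 1 of vincristine 1 mg/kg at 24 h (318). Slc40a1 was low on replicate 4 of vinblastine 3 mg/kg at 24 h (230), and Cp was high on replicate 5 of vincristine 1 mg/kg at 24 h (598). The cause of these readings was not tested.

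The change from saline differed between 24 and 6 h in 12 tests of the difference itself in limma. For Tfrc it differed by -2.13 after vinblastine 3 mg/kg, -4.07 after vincristine 1 mg/kg and -2.85 after colchicine 2 mg/kg, and for Slc11a2 by -0.66, -0.74 and -0.38. After vincristine, Hamp (2.31) and Cp (1.11) rose more at 24 h. After colchicine, Hamp (3.16), Lcn2 (2.47), Hmox1 (1.12) and Cp (0.84) did so. Hmox1, Cp and Slc11a2 passed there with limma adjusted p of 0.0419, 0.0462 and 0.0293. Each of them lost its call with only the compared groups fitted (0.0987, 0.0799 and 0.124) and in several fits that left out 1 array.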

How the results depend on the processing

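No member's change reversed under any alternative run. Of the 22 counts of members called, 13 values under other settings moved by more than 1.5 times. With only the compared groups fitted, the count went from 4 to 2 for vinblastine 3 mg/kg and from 0 to 2 for vincristine 1 mg/kg against saline at 6 h, from 3 to 0 for vinblastine and from 2 to 5 for colchicine between doses at 6 h, and from 4 to 7 for vincristine and 6 to 3 for colchicine in the time contrast. Without the 10 arrays nearer to another group, it went from 0 to 3 for vincristine and from 2 to 4 for colchicine against saline at 6 h, from 0 to 2 for vincristine between doses at 6 h, and from 4 to 7 for vincristine in the time contrast. In those fits 12.3%, 19.3%, 11.3% and 15.8% of all genes were called. Without the arrays ending in _2, it went from 2 to 4 for colchicine against saline and from 3 to 0 for vinblastine between doses, both at 6 h. With no filter, colchicine against saline at 6 h went from 2 to 1. The cause of these shifts was not tested beyond the fewer arrays or the other genes in each fit.

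Leaving out 1 replicate at a time gave 2 to 4 members for vinblastine 3 mg/kg, 0 to 1 for vincristine 1 mg/kg and 1 to 2 for colchicine 2 mg/kg against saline at 6 h, and 4 to 4, 6 to 7 and 6 to 6 at 24 h. Between doses it gave 0 to 4, 0 to 0 and 1 to 3 at 6 h and 4 to 4, 7 to 7 and 6 to 7 at 24 h, and in the time contrasts 2 to 2, 3 to 5 and 3 to 6. The lower doses and saline by time stayed at 0 to 0. Of 893 such fits of single changes, 68 lost the call. The 893 also hold the uncalled changes of Tfrc and Hamp from saline at the higher doses, which had no call to lose. The low count of the vinblastine contrasts at 6 h came without replicate 1 of vinblastine 3 mg/kg, and the low count of the colchicine time contrast without replicate 2, 5 or 6 of colchicine 2 mg/kg at 24 h.

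The replicate number as a block changed 1 call, the colchicine time contrast of Cp (0.84, limma adjusted p = 0.0539), and moved no count by over 1.5 times. Same-numbered arrays deviated with a median r of 0.02 (521 pairs, from -0.73 to 0.72), against 0.00 for arrays of different numbers. Of these pairs 156 lay above 0.1, and a median over all groups cannot exclude a pairing in some of them. The calls for Tfrc at 24 h held under every alternative run.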
